A study of Mus musculus with 8 samples.

Results

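The NRF2 antioxidant genes described here are Nfe2l2, which encodes the transcription factor NRF2, and 9 genes of the antioxidant program known to respond to it: Nqo1, Hmox1, Osgin1, Gclc, Gclm, Gsr, Txnrd1, Srxn1 and G6pdx. They were taken by gene symbol as known genes of the pathway, and all 10 have a row in the deposited table of 35275 genes. The tissue was mouse renal cortex at postnatal day 7, with 8 animals sequenced for RNA. The 4 controls (Con1391, Con1452, Con1822, Con1823) belong to the mouse line labelled Cre-, and the 4 mutants (Mut1393, Mut1453, Mut1454, Mut1819) to the line labelled Six2-Tfam knockout, with 1 library per mouse. Tfam encodes a mitochondrial DNA-binding protein needed for transcription and upkeep of that genome. Six2 marks nephron progenitors, so a Cre driven by Six2 acts in nephron epithelium and is not known to act in collecting duct, vessel, stromal or immune cells. The labels do not spell out the alleles, whether controls carry floxed Tfam, or which mice are littermates, and no library had Cre with intact Tfam. Effects of the Cre transgene and of Tfam loss therefore cannot be told apart.

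NRF2 is held at a low level by KEAP1, an adaptor that hands it to a CUL3 ubiquitin ligase for breakdown. When oxidants or electrophiles modify KEAP1, NRF2 accumulates, pairs with a small MAF protein and binds antioxidant response elements near genes for glutathione synthesis, the thioredoxin system, quinone and heme breakdown and NADPH supply. Much of this control therefore acts on the protein, which RNA sequencing does not measure. In the kidney the pathway is best known for protection of tubule cells against oxidative and toxic injury.

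Counted reads per library ranged from 15597762 to 20417550, and the members had between 82 and 7933 counts in each library. Tfam, the targeted gene, had 766 to 907 counts in the controls and 458 to 554 in the mutants (log2 fold change -0.98). Transcripts of the mitochondrial genome took 3.88 to 9.28% of the counts in controls and 1.15 to 1.84% in mutants. The marker lists of the nephron were present in every library. The 10 proximal tubule markers summed to 4972 to 6747 CPM (counts put on 1 scale across libraries) in controls and 704 to 1323 in mutants. Markers of the loop of Henle and distal tubule (5 of 5), podocyte (4 of 5), collecting duct (4 of 5) and endothelium (5 of 5) also fell, as did 1 of 5 for interstitial stroma. Of 5 adrenal markers 1 had counts enough to test, and it fell, while Cyp11b1 had 0 counts in all 8 mice. Sex-linked transcripts were unequal between the groups: 4 Y-linked genes together had 0 to 3 counts in the controls, 27 in Mut1819, and 4294 to 4915 in the other mutants. The X-linked transcript Xist had 10275 to 15593 counts in the controls, 13831 in Mut1819 and 13 to 141 in the other mutants. By these transcripts the controls and Mut1819 read as female and the other mutants as male, so sex and group largely go together. In bulk tissue, fewer cells of a type and less RNA per cell cannot be told apart.

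The members split in the mutants: 6 of the 10 rose, 3 fell and 1, Gclc, did not pass the test. The members that rose were Nqo1, Txnrd1, Srxn1, Hmox1, G6pdx and Nfe2l2, and those that fell were Gclm, Osgin1 and Gsr. Changes were tested with edgeR's quasi-likelihood test at a Benjamini-Hochberg adjusted p of 0.05 over all 15028 genes that passed a filter on low counts, and all 10 members passed that filter. Of all genes tested, 46.2% changed, 23.5% upward and 22.7% downward, which is the background for the counts of members. The median log2 fold change of the members was 0.60, and that of all tested genes was -0.00078. In 8 members every mutant lay beyond every control, 6 above and 2 below, against 43.0% of all genes tested, 22.1% above and 20.8% below. The members that rose by more than 1 on the log2 scale were Nqo1, Txnrd1, Srxn1 and Hmox1, 4 of 10, against 3.72% of all genes. The members were chosen with earlier results of these data known, so these shares describe them and are no independent test. Levels are CPM scaled by TMM (trimmed mean of M-values), with means ± SD over n = 4 mice. Each log2 fold change, with its standard error (SE), compares mutants to controls. Values per mouse are listed with the controls in the order Con1391, Con1452, Con1822, Con1823 and the mutants in the order Mut1393, Mut1453, Mut1454, Mut1819.

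**Figure D1:**
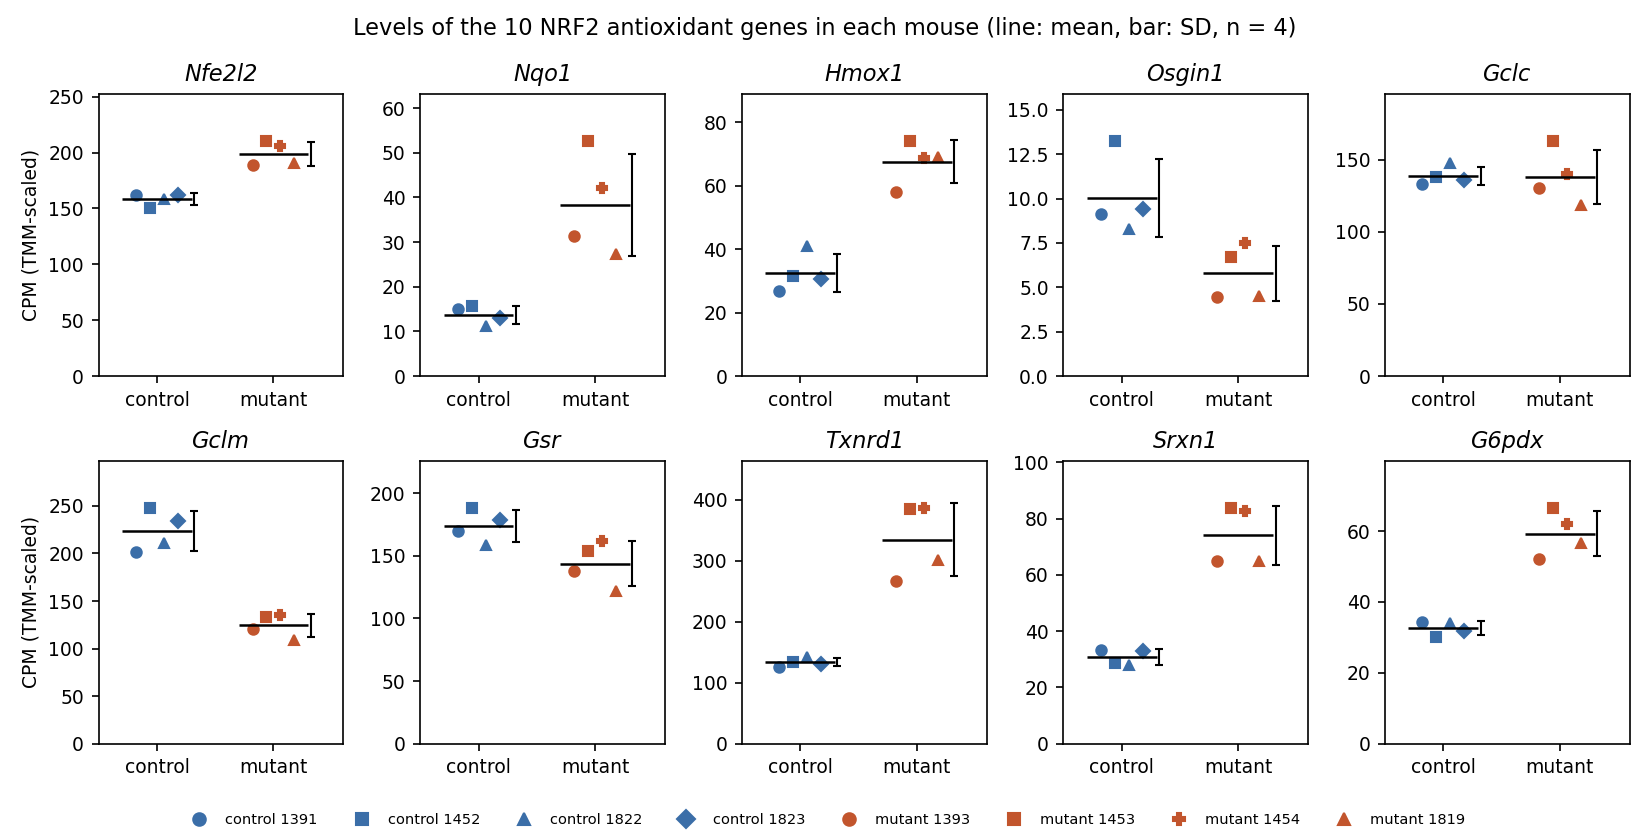
CPM of each of the 10 members in each of the 8 mice, with 1 point per mouse, a line at the group mean and a bar for the SD (n = 4). The mutants stand above all controls in Nfe2l2, Nqo1, Hmox1, Txnrd1, Srxn1 and G6pdx, and below all controls in Gclm and Osgin1, while the groups overlap in Gclc and, through Mut1454 alone, in Gsr.

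Antioxidant response elements were looked for by letters in RefSeq promoter windows (build GRCm38.p6). Each runs from 250 bases before an annotated start of a gene to 50 after it. The table holds 9 windows for 7 members, 3 of them for Txnrd1, and Hmox1, Gclc and Gsr have no entry. The core letters TGACNNNGC, searched on both strands, stood in 5 of the 9 windows, those of Nfe2l2, Srxn1, G6pdx and Gclm and 1 of Txnrd1, and in 12.4% of all 32851 windows. These 5 are shown because they come from 4 genes that rose and 1 that fell. Capitals mark the core letters, which read GCNNNGTCA where the match lies on the opposite strand.
Srxn1, chr2:152105274-152105573, plus strand: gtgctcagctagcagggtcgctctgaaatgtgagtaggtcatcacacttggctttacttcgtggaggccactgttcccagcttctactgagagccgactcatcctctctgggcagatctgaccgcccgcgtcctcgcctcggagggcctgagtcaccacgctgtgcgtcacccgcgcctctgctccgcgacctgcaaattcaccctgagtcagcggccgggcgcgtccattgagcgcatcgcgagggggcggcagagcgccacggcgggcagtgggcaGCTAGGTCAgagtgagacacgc
G6pdx, chrX:74428831-74429130, minus strand: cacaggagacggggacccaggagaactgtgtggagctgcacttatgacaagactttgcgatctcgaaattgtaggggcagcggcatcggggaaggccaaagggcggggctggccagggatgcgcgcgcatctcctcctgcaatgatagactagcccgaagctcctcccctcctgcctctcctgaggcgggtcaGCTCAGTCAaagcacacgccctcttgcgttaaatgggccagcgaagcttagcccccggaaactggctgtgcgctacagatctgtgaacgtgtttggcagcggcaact
Txnrd1, chr10:82858956-82859255, plus strand: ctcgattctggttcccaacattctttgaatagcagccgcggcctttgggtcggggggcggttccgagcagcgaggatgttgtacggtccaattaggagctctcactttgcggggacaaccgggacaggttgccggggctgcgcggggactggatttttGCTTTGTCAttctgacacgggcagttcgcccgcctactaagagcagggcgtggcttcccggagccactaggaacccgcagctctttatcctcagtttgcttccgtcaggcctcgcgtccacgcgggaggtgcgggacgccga
Nfe2l2, chr2:75704614-75704913, minus strand: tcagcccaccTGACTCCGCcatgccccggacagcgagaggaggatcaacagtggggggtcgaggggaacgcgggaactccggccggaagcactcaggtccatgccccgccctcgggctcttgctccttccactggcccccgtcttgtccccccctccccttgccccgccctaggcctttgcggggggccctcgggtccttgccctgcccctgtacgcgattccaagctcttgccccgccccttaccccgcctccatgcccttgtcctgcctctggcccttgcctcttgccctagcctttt
Gclm, chr3:122245307-122245606, plus strand: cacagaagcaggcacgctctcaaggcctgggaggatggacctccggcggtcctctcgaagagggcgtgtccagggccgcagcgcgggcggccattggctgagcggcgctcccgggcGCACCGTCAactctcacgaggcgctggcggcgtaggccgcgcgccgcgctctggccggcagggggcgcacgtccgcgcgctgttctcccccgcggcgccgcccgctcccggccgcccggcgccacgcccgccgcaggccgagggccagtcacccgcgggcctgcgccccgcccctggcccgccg
Distances count from each window's own annotated start, which can lie inside the gene's span given below. The core match lay 57 bases before that start in G6pdx, 92 in Txnrd1, 134 in Gclm and 240 in Nfe2l2. In Srxn1 it lay at base 29 after the start. For Txnrd1 this is a start inside the gene, and the window around the gene's first base, 82833701 to 82834000, had 0 core matches. The end of the Nfe2l2 window was not found in a transcript. The letters TGACTCA, bound by AP-1 factors, stood in the windows of Srxn1 and Osgin1 and in 5.20% of all windows, and none of these matches overlapped a core match. A match is a description of the letters and not a measured binding site, and no match says only that the letters are not in this window.

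Nfe2l2 (ENSMUSG00000015839, mm10 chromosome 2, 75675513 to 75704641, minus strand) rose by a small amount. Its level was 162, 151, 159 and 162 CPM in controls, and 188, 211, 206 and 190.4 CPM in mutants. All mutants lay above all controls, and the 2 groups were each narrow. The means were 158 ± 5.36 and 199 ± 11.1 CPM, a log2 fold change of 0.33 (SE 0.06, edgeR adjusted p = 0.000553), or 1.25-fold. With a term for libraries with Y-linked counts the log2 fold change was 0.27 and missed the threshold (edgeR adjusted p = 0.0516).

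Among 15 genes that regulate NRF2 or share its family, 5 rose, 1 fell and 9 missed the threshold. Their median was 0.09 on the log2 scale. Over all tested genes 23.5% rose and 22.7% fell, which is the background for this and each later list count with group alone. For list counts with the term for Y-linked counts the background is 12.6% higher and 13.8% lower. No such share was taken for fits that leave out a mouse, so those list counts have no background. Keap1, the adaptor that marks NRF2 for breakdown, was at 44.6 ± 2.68 CPM in controls and 41.1 ± 2.30 in mutants (log2 fold change -0.12, edgeR adjusted p = 0.162). Bach1, a repressor that competes for the same elements, was at 62.2 ± 5.06 and 62.2 ± 6.01 CPM (adjusted p = 0.998). The groups overlapped for Keap1 and Bach1. Btrc, the listed regulator that fell and named here after its values were seen, went from 47.0 ± 2.03 to 36.4 ± 2.10 CPM. All mutants lay below all controls for Btrc (log2 fold change -0.37, edgeR adjusted p = 0.000488). The small MAF gene Maff, whose protein pairs with NRF2, went from 5.97 ± 0.609 to 19.0 ± 1.64 CPM (log2 fold change 1.67, edgeR adjusted p = 2.76e-07). Sqstm1, which encodes the autophagy adaptor p62 that binds KEAP1, went from 329 ± 26.5 to 671 ± 24.4 CPM (log2 fold change 1.03, adjusted p = 3.54e-07). The related factor genes Nfe2l3 and Nfe2l1 rose by 1.33 and 0.44 on the log2 scale.

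Nqo1 (ENSMUSG00000003849, chromosome 8, 107388225 to 107403206, minus strand), which encodes a quinone reductase and is a classic readout of NRF2, had the largest log2 fold change of the 10 members in the fit with group alone, though not with a term for Y-linked counts (0.99, against 1.18 for Txnrd1). It stood at 14.95, 15.7, 11.3 and 13.1 CPM in the controls, and at 31.3, 52.7, 42.1 and 27.4 CPM in the mutants. Every mutant lay above every control, but the mutants were spread widely, from 27.4 in Mut1819 to 52.7 in Mut1453. Means were 13.8 ± 1.98 and 38.4 ± 11.4 CPM, a log2 fold change of 1.48 (SE 0.19, edgeR adjusted p = 5.03e-05), or 2.78-fold with a 95% interval from 2.09 to 3.70. The coefficient of variation over the mutants, 29.7%, was the highest of the 10 members.

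Hmox1 (ENSMUSG00000005413, chromosome 8, 75093621 to 75100589, plus strand) encodes heme oxygenase 1, which opens the heme ring and is abundant in macrophages as well as in stressed epithelium. Its level was 26.9, 31.6, 40.8 and 30.5 CPM in controls, and 58.1, 74.2, 68.8 and 69.0 CPM in mutants. Con1822 was the highest control and Mut1393 the lowest mutant. The groups did not overlap, and the means of 32.5 ± 5.93 and 67.5 ± 6.74 CPM differed by a log2 fold change of 1.06 (SE 0.12, edgeR adjusted p = 1.39e-05). All 10 macrophage markers listed rose too, with none at 0. The summed macrophage level was 166 to 195 CPM in controls and 303 to 361 in mutants, and its part in the Hmox1 result was not tested. Of 8 erythroid markers 2 fell, and they summed to 692 to 998 CPM in controls and 523 to 658 in mutants, with none at 0. Of 10 other genes for heme and iron handling, 5 fell and 5 missed the threshold (the median was -0.12 on the log2 scale). The falls numbered 3 without any one of Con1391, Con1452, Con1823, Mut1393, Mut1454 or Mut1819, and 3 with the term for Y-linked counts. The biliverdin reductase gene Blvra, whose enzyme acts on the product of heme oxygenase, went from 42.9 ± 4.28 to 29.0 ± 0.832 CPM (log2 fold change -0.56, adjusted p = 8.24e-05), and the transferrin receptor gene Tfrc and the iron exporter gene Slc40a1 fell by 0.61 and 0.47.

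Osgin1 (ENSMUSG00000074063, chromosome 8, 119434124 to 119446256, plus strand), which encodes a growth inhibitor induced by oxidative stress, was the member with the fewest counts and fell. The controls had 145, 221, 130 and 156 counts of it, the mutants 92, 116, 154 and 82. On the CPM scale these are 9.15, 13.3, 8.26 and 9.43 in controls and 4.48, 6.71, 7.50 and 4.50 in mutants. All mutants were below all controls, though Mut1454 came close to Con1822. The log2 fold change was -0.79 (SE 0.20, edgeR adjusted p = 0.00690).

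Of the pair of genes for glutamate-cysteine ligase, the rate-limiting enzyme of glutathione synthesis, Gclm fell and Gclc did not pass the test. Gclc (ENSMUSG00000032350, chromosome 9, 77754535 to 77794485, plus strand) encodes the catalytic subunit, at 133, 138, 148 and 136 CPM in controls, and 130.4, 163, 139.7 and 119 CPM in mutants. The mutants spread to both sides of the controls. Its log2 fold change was -0.01 (SE 0.09, edgeR adjusted p = 0.950), and the 95% interval from -0.20 to 0.18 leaves room for a change of that size in either direction. Gclm (ENSMUSG00000028124, chromosome 3, 122245557 to 122270732, plus strand) encodes the modifier subunit, which makes the enzyme more efficient. It had 201, 248, 212 and 235 CPM in controls and 120.1, 133, 135 and 109 CPM in mutants, with no overlap. The mean was 224 ± 21.2 CPM in controls and 124 ± 12.3 in mutants (log2 fold change -0.85, SE 0.08, edgeR adjusted p = 6.98e-06). Within each mouse, the ratio of Gclm to Gclc in FPKM, a count scaled by gene length and library size, was 3.62, 4.29, 3.42 and 4.12 in controls, and 2.20, 1.95, 2.31 and 2.20 in mutants. All 4 mutant ratios lay below all 4 control ratios, with means of 3.86 ± 0.408 and 2.16 ± 0.153.

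Gsr (ENSMUSG00000031584, chromosome 8, 33652523 to 33698163, plus strand) encodes glutathione reductase, which restores reduced glutathione with NADPH. Its level was 169.5, 188, 159 and 179 CPM in controls and 138, 154, 162 and 122 CPM in mutants. The groups overlapped, since Mut1454 was above Con1822. The log2 fold change was -0.27 (SE 0.09, edgeR adjusted p = 0.0229). The call was lost without Con1452 (-0.22, adjusted p = 0.0696), without Con1823 (-0.26, adjusted p = 0.0598) and without Mut1819 (-0.20, adjusted p = 0.0626), and with a term for Y-linked counts the log2 fold change was -0.51 (adjusted p = 0.00847).

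Of 18 other genes for glutathione synthesis and recycling, 9 fell, 3 rose and 6 missed the threshold, and the median was -0.43 on the log2 scale. Those that fell with the smallest adjusted p encode enzymes at the cell surface that take glutathione or its peptides apart: Anpep, an aminopeptidase, went from 503 ± 23.7 to 102 ± 20.1 CPM, Ggt1, the gamma-glutamyl transferase, from 480.4 ± 43.7 to 207 ± 24.2, and Dpep1, a dipeptidase, from 125 ± 36.2 to 35.3 ± 3.82. Their log2 fold changes were -2.30, -1.21 and -1.83 (edgeR adjusted p = 6.21e-08, 9.19e-07 and 3.06e-06). All 3 are known from the brush border of the proximal tubule, and all 10 proximal tubule markers listed fell, their median being -2.93 on the log2 scale, with none at 0. The part of these markers in the falls of Gclm, Gsr, Osgin1 and the glutathione genes was not tested, nor was that of the macrophage markers in the rises of other members. Chac1, a cytosolic enzyme that cleaves glutathione, had 0.369 ± 0.200 CPM in controls, from 24 counts in all, and 27.0 ± 2.57 in mutants, a rise of 6.16 on the log2 scale.

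Both members of the thioredoxin branch rose, with no overlap between the groups. Txnrd1 (ENSMUSG00000020250, chromosome 10, 82833951 to 82897712, plus strand) encodes cytosolic thioredoxin reductase, a selenoprotein that reduces thioredoxin with NADPH. Levels of 126, 135, 142 and 131 CPM in the controls stood against 267, 385, 387 and 301 CPM in the mutants. The lowest mutant was far above the highest control. Means of 133 ± 6.61 and 335 ± 60.3 CPM gave a log2 fold change of 1.33 (SE 0.11, edgeR adjusted p = 1.74e-06), or 2.51-fold with a 95% interval from 2.12 to 2.97. Eid3, a gene within Txnrd1 on the same strand, has no row in the table used here. Srxn1 (ENSMUSG00000032802, chromosome 2, 152105516 to 152111376, plus strand) encodes sulfiredoxin, which repairs overoxidised peroxiredoxins. Its CPM was 33.3, 28.5, 28.1 and 33.0 in controls and 65.1, 83.7, 82.6 and 64.8 in mutants. The mutants formed a higher pair, Mut1453 and Mut1454, and a lower pair, both above all controls. The log2 fold change was 1.27 (SE 0.10, edgeR adjusted p = 1.31e-06).

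The reductases of glutathione and thioredoxin moved apart. The ratio of Txnrd1 to Gsr in FPKM was 0.271, 0.261, 0.326 and 0.268 in controls, and 0.707, 0.911, 0.871 and 0.903 in mutants. The lowest mutant ratio was above the highest control ratio, and the means were 0.281 ± 0.0298 and 0.848 ± 0.0953. Both ratios were chosen after the values of these genes were seen, and no test was made of them.

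**Figure D2:**
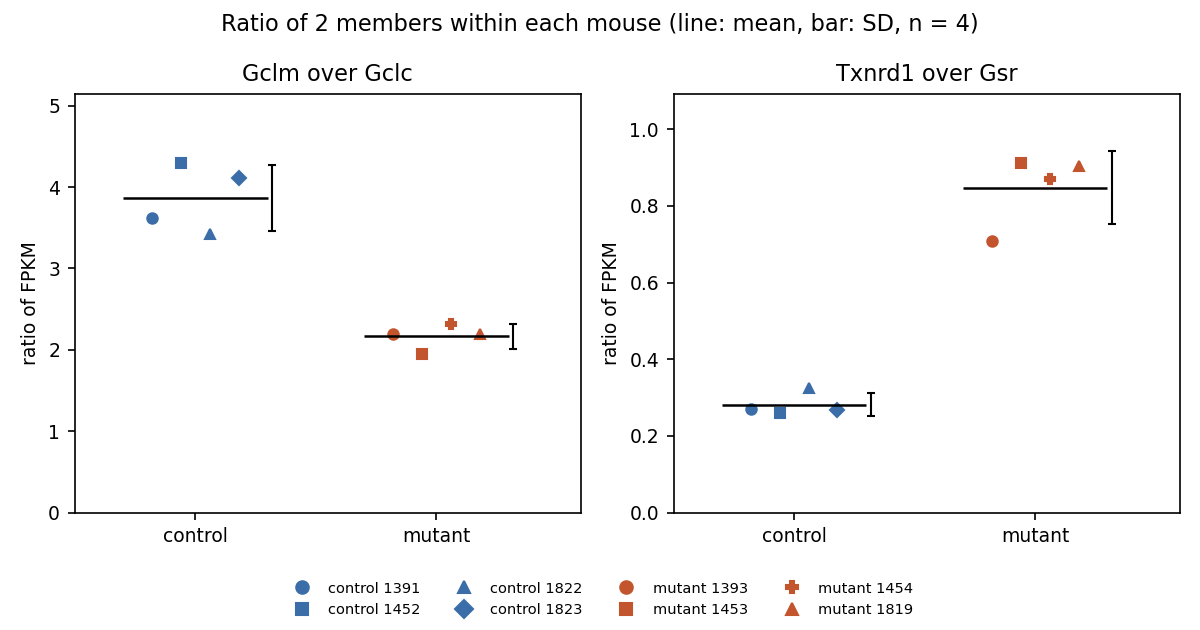
Ratio of Gclm to Gclc (left) and of Txnrd1 to Gsr (right), each from FPKM within a mouse, with 1 point per mouse, a line at the mean and a bar for the SD (n = 4). The Gclm to Gclc ratio is 3.42 to 4.29 in controls and 1.95 to 2.31 in mutants, and the Txnrd1 to Gsr ratio is 0.261 to 0.326 in controls and 0.707 to 0.911 in mutants.

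Of 17 other genes of the thioredoxin and peroxiredoxin system, 5 rose, 7 fell and 5 missed the threshold (median -0.06 on the log2 scale). With the term for Y-linked counts 3 rose and 4 fell. Sesn2, a stress-induced sestrin, went from 54.1 ± 4.88 to 111 ± 8.55 CPM (log2 fold change 1.04, edgeR adjusted p = 6.21e-07). Txnrd3, a reductase that acts on both thioredoxin and glutathione disulfide, went from 31.9 ± 1.72 to 53.6 ± 4.47 CPM (log2 fold change 0.75, adjusted p = 5.79e-06). The peroxiredoxin gene Prdx5 fell by 0.84 and the methionine sulfoxide reductase gene Msra by 1.05.

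G6pdx (ENSMUSG00000031400, chromosome X, 74409483 to 74429194, minus strand) encodes glucose-6-phosphate dehydrogenase, which opens the pentose phosphate pathway and makes the NADPH that both reductases use. It was at 34.3, 30.1, 33.9 and 31.9 CPM in controls, and 52.0, 66.5, 62.1 and 56.7 CPM in mutants. The groups were far apart. The log2 fold change was 0.87 (SE 0.08, edgeR adjusted p = 4.35e-06), or 1.82-fold. The gene is X-linked, and sex-linked transcripts differ between the groups. Mut1819, the mutant with few Y-linked counts, lay within the range of the other mutants. With the term for Y-linked counts the log2 fold change was 0.80 (edgeR adjusted p = 0.000868). An autosomal copy, G6pd2, matches 87.5% of the G6pdx transcript at 93.2% identity and had 0 counts in all 8 mice. Ikbkg overlaps G6pdx on the opposite strand, and strandedness is not given in the sources used here, so reads of the 2 genes cannot be told apart where they overlap. The log2 fold change of Ikbkg was 0.04 (edgeR adjusted p = 0.587).

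Of 12 other genes of the pentose phosphate pathway and NADPH supply, 11 were tested, 5 rose, 4 fell and 2 missed the threshold (median -0.12 on the log2 scale). The falls numbered 1 without Con1391 or Con1452 and 2 without Mut1393 or Mut1819, and the rises numbered 2 with the term for Y-linked counts. Pgd, which catalyses the second NADPH-yielding step, went from 98.6 ± 3.75 to 140.4 ± 17.5 CPM (log2 fold change 0.51, edgeR adjusted p = 0.000301), and Rpia and Pgls, further enzymes of the pathway, rose by 0.55 and 0.47. With the term for Y-linked counts Pgls was at 0.33 and missed the threshold (adjusted p = 0.0552). Idh1, the cytosolic NADP-dependent isocitrate dehydrogenase, went the other way, from 360.3 ± 35.3 to 162 ± 19.4 CPM (log2 fold change -1.15, adjusted p = 1.47e-06).

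Of 32 further genes known as NRF2 targets, 28 were tested, of which 11 rose, 8 fell and 9 missed the threshold (median 0.07 on the log2 scale). Slc7a11, the cystine carrier that feeds glutathione synthesis, stood at 1.92 ± 0.433 CPM in controls and 27.5 ± 3.46 in mutants (log2 fold change 3.83, SE 0.16, edgeR adjusted p = 1.22e-08). It is also a target of ATF4, the factor of the integrated stress response, and all 10 genes listed for that response rose, Slc7a11, Chac1 and Sesn2 among them. The list for that response was drawn up with earlier results of these data known, so it is not an independent contrast. The glycine carrier gene Slc6a9, also known as a target of ATF4, rose by 2.35, the efflux pump gene Abcc4 by 2.04 and the aldo-keto reductase gene Akr1b8 by 1.85. Among the 8 that fell, and named here after their values were seen, the carbonyl reductase gene Cbr1 went from 239 ± 23.6 to 122 ± 21.2 CPM (log2 fold change -0.97, edgeR adjusted p = 3.10e-05). Entpd5, which encodes a nucleotide diphosphatase, fell by 0.80 (adjusted p = 4.57e-06).

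**Figure D3:**
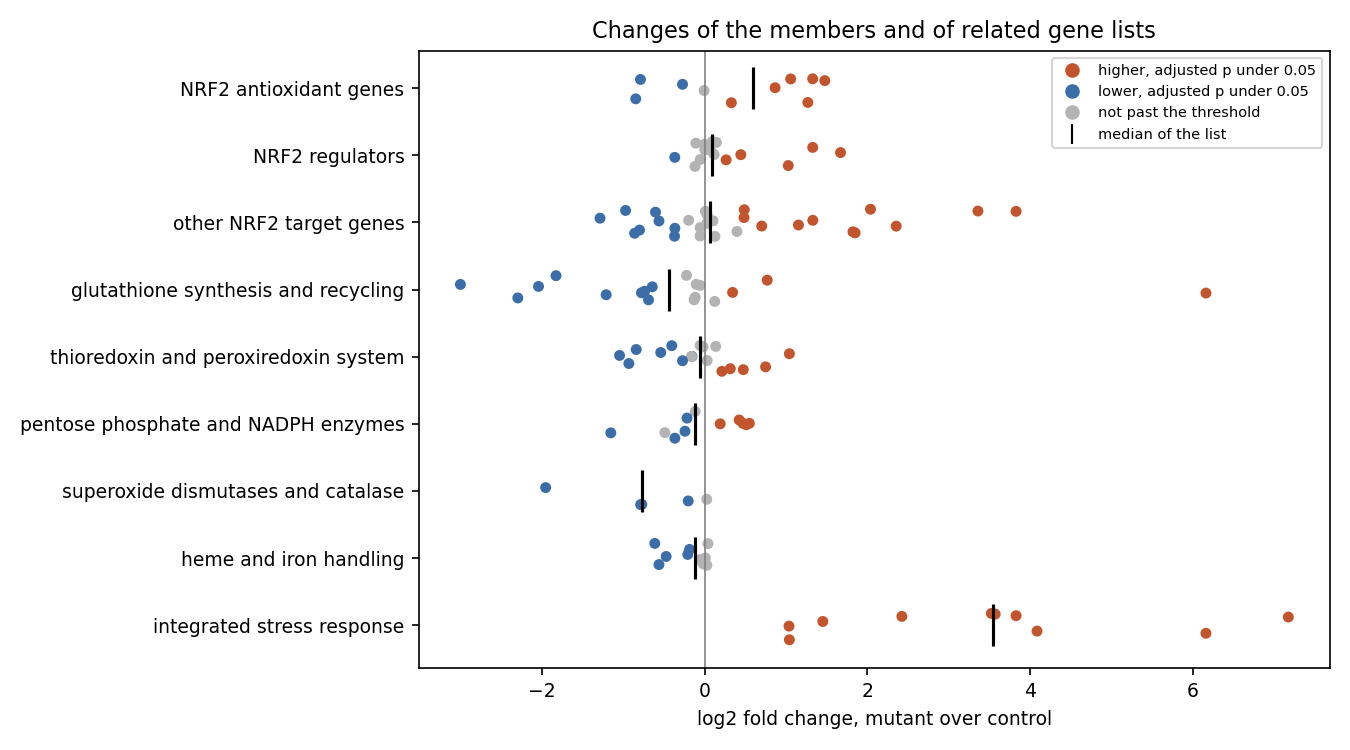
Log2 fold change, mutant over control, of each tested gene in the members (top) and in 8 related lists, with 1 point per gene, colour for the call at an edgeR adjusted p of 0.05 and a line at the list's median. The members and the further NRF2 targets spread to both sides of 0, with medians of 0.60 and 0.07, while the integrated stress response lies wholly above it, with a median of 3.55. The lists were drawn up with earlier results of these data known for stress-response and glutathione genes.

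Per gene length, Gclm was the most abundant member in the controls and Osgin1 the least. The control means ran from Gclm (152 ± 10.3 FPKM) and Gsr (136 ± 5.44) through Nfe2l2 (78.7 ± 5.01), Gclc (39.5 ± 2.76), Txnrd1 (38.0 ± 2.60), Hmox1 (32.9 ± 6.77), G6pdx (25.2 ± 2.32) and Srxn1 (24.7 ± 2.53) to Nqo1 (8.60 ± 1.02) and Osgin1 (7.09 ± 1.29). Neighbours whose control ranges overlapped were Gclm and Gsr, Gclc and Txnrd1, Txnrd1 and Hmox1, G6pdx and Srxn1, and Nqo1 and Osgin1. In the mutants the order was Gsr (118 ± 12.6 FPKM), Nfe2l2 (104 ± 4.57), Txnrd1 (100.3 ± 16.8), Gclm (88.9 ± 7.26), Hmox1 (71.9 ± 7.10), Srxn1 (62.6 ± 8.01), G6pdx (48.3 ± 4.72), Gclc (41.3 ± 5.21), Nqo1 (25.3 ± 7.23) and Osgin1 (4.33 ± 1.08). Neighbours whose mutant ranges overlapped were Gsr and Nfe2l2, Nfe2l2 and Txnrd1, Txnrd1 and Gclm, Hmox1 and Srxn1, and G6pdx and Gclc.

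**Figure D4:**
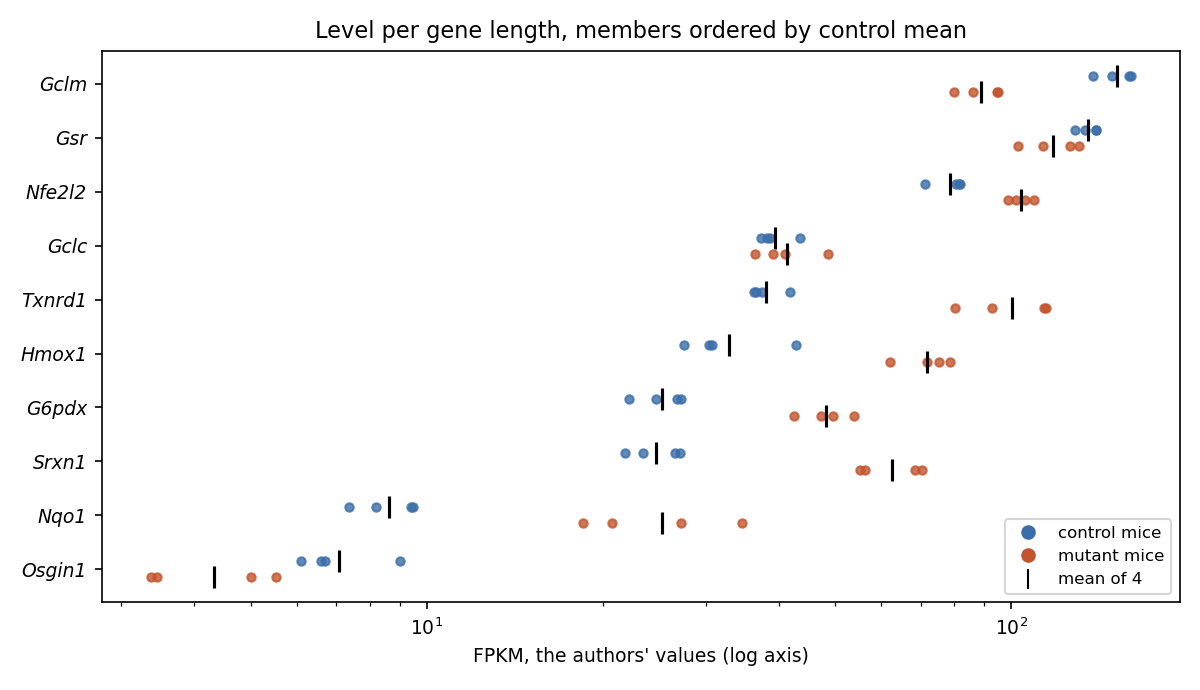
FPKM of each member in each mouse on a log axis, with control mice in blue, mutant mice in orange and a black tick at the mean of 4. Control means run from 7.09 FPKM for Osgin1 to 152 for Gclm, and mutant means from 4.33 for Osgin1 to 118 for Gsr.

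The mutants also differed among themselves in a way that most members shared. In 9 of the 10 members both Mut1453 and Mut1454 were above both Mut1393 and Mut1819, the exception being Hmox1, and this order held in 25.8% of all tested genes, the reverse order in 19.9%. It included members that rose and members that fell. The mouse numbers fall into ranges of 1300, 1400 and 1800, and what these stand for is not in the labels. The 1300 range holds 1 control and 1 mutant, the 1400 range 1 control and 2 mutants, and the 1800 range 2 controls and 1 mutant. Where a group has 1 mouse, its value stands for the mean. Within the ranges, in that order, the log2 ratio of mutant to control means was 1.07, 1.59 and 1.17 for Nqo1. It was 0.97, 1.55 and 1.08 for Srxn1 and 1.09, 1.52 and 1.14 for Txnrd1. For Gclm it was -0.75, -0.88 and -1.03. All members other than Gclc had the same sign in the 3 ranges, and Gclc was at -0.03, 0.14 and -0.26. The share of all genes with the same sign in the 3 ranges was not taken. With a term for the ranges in the test 48.2% of all genes passed, and the members stayed at 6 higher and 3 lower.

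Because sex-linked transcripts and group go together in 3 of the 4 mutants, each member was also fitted with a term for Y-linked counts, in which Mut1819 is the one mutant set against the controls. In that fit 26.4% of all genes passed, 12.6% higher and 13.8% lower, and 5 members were higher and 3 lower. With Mut1819 alone against the controls 25.0% of all genes passed, 11.6% higher and 13.4% lower. That comparison has 1 mutant library, which is assumed to vary like the 4 controls, so it says nothing of the spread among mutants. Both fits set Mut1819 against the controls and give nearly the same estimates (0.27 for Nfe2l2 in each). The comparison is therefore no separate check, here or among the alternatives below. With the term for Y-linked counts the log2 fold changes were 0.99 for Nqo1, 1.18 for Txnrd1, 1.08 for Srxn1, 1.09 for Hmox1, -1.04 for Gclm and -1.16 for Osgin1, with edgeR adjusted p from 0.000201 for Gclm to 0.0259 for Osgin1. Gclc was at -0.23 (adjusted p = 0.190).

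**Figure D5:**
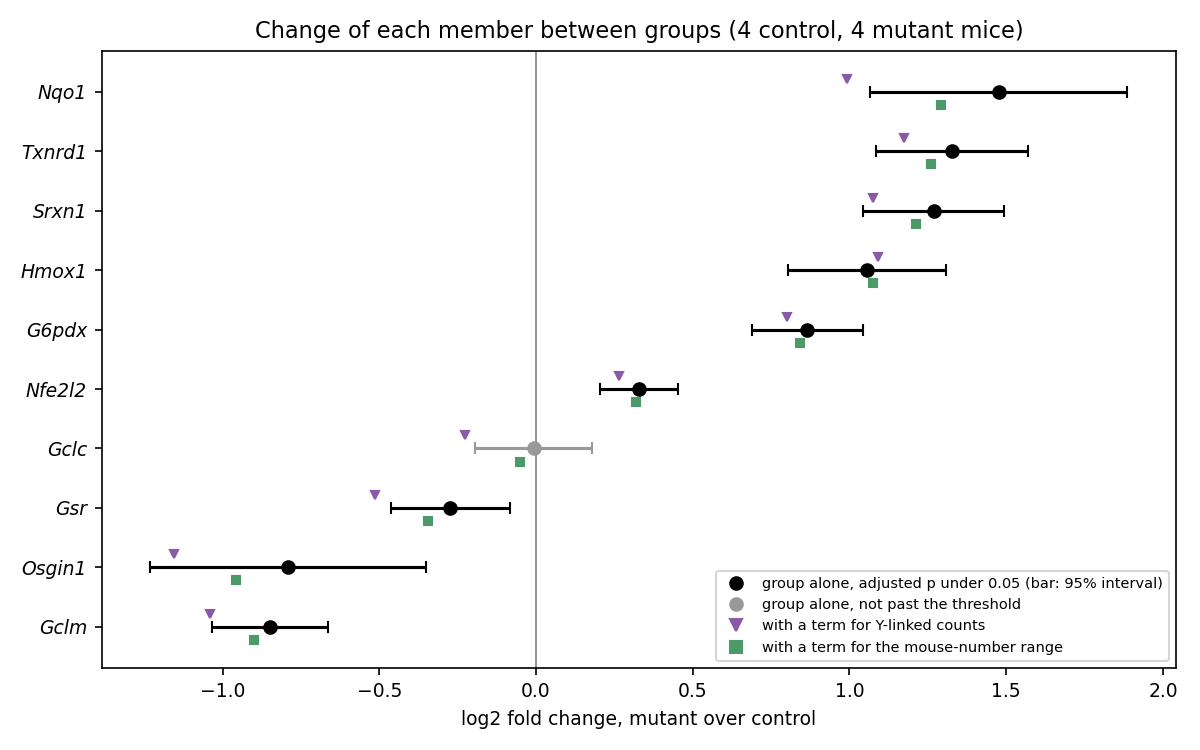
Log2 fold change of each member, mutant over control, from edgeR with group alone (circles, bar for the 95% interval), with a term for Y-linked counts (triangles) and with a term for the mouse-number range (squares). With group alone the members run from Gclm at -0.85 to Nqo1 at 1.48. Each member lies on 1 side of 0 in all 3 fits. Gclc is at -0.01 with group alone and at -0.23 with the term for Y-linked counts.

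The genes closest to 4 members in their pattern over the 8 mice were found by the root mean square difference of log2 CPM, each gene centred on its own mean. For Nqo1 the closest of all non-member genes was Cbr3, which encodes a carbonyl reductase and stands on the list of NRF2 targets, with a difference of 0.143 and levels of 9.19 CPM in controls and 23.1 in mutants. The next were Slc38a3 (0.175) and Tmem171 (0.176). Closest to Nfe2l2 were Metap2 (0.0262), Vapa (0.0264) and Ssh2 (0.0285), to Hmox1 Paqr3 (0.0750), Neat1 (0.0866) and Setd6 (0.0871), and to Gclm Clic5 (0.0628), Ispd (0.0677) and Cpox (0.0711).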

How the data were processed

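Per the file headers, the authors deposited for each gene the count and the FPKM of every mouse. The submitters' processing notes name TopHat2, Bowtie2, HTSeq and DESeq2 and build mm10. For versions and strandedness, no source used here gives a value. The authors' deposited signal is a group mean of scaled counts, listed with a log2 fold change and a p-value. In the authors' deposited table the same 9 members have an adjusted p under 0.05 and Gclc has 0.9616. FPKM was used for levels per length and was not tested.

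The test was that of edgeR 4.0.16 under R 4.3.3 on the counts (filterByExpr, TMM, quasi-likelihood test with group alone, Benjamini-Hochberg adjustment), and intervals of fold changes are at 95%. Of 35275 genes, 15028 were tested. The SE is the log2 fold change divided by the square root of F. Alternatives used DESeq2 1.42.0 and limma 3.58.1. The pipeline was tested on simulated counts. The reduced chi-square of the 12 pairs of libraries within groups was 4.63 to 42.3, so that none is a repeat of another. Depth limits low counts most. A p-value sets the difference between the groups against the spread between mice, estimated with information from all genes. With group alone it does not separate group from sex. Positions are from GENCODE M21 on the same build, and similar transcripts were found with BLAST 2.17.0 at 90% identity over at least 10% of the transcript. Summaries used Python 3.11.15, pandas 2.3.3 and SciPy 1.17.1.

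The members and gene lists were chosen with earlier results of these data known. The 8 gene lists and 9 marker lists hold 177 distinct genes with the members, all matched by symbol or gene ID. Named genes are the members, up to 4 genes per list with the smallest adjusted p, Keap1, Bach1 and Slc7a11, and 3 genes closest in pattern to each of 4 members. Named genes from the lists are not all described. Ikbkg and G6pd2 were named for their overlap or likeness with G6pdx. Btrc, Cbr1 and Entpd5 were named after their values were seen and are outside the 33 other named genes checked below.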

Additional observations from a re-analysis of the deposited data

Results flagged for a closer look

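In 86 groups of 4 mice (the 10 members and 33 other named genes, controls and mutants apart), a mouse was looked for whose gap to its nearest neighbour passes Dixon's 95% critical value for 4 samples. Chance flags about 5% of groups, and 3 were found, none in a member. Chac1 was 23.2 CPM in Mut1393 and 28.2 to 28.5 in the other mutants. Sod3, which encodes extracellular superoxide dismutase, was 48.7 CPM in Mut1819 and 64.2 to 65.8 in the other mutants. Ddit3, which encodes CHOP, was 8.94 CPM in Con1823 and 7.32 to 7.56 in the other controls.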

How the results depend on the processing

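Under 18 alternatives, the number of members that rose stayed at 5 or 6 and the number that fell at 2 or 3. At a fold threshold of 1.2, 5 members rose and 2 fell, against 11.2% and 12.9% of all genes tested. Of 104 other genes of the lists tested, 36 rose and 36 fell with group alone, against 23.5% and 22.7% of all genes. Under the alternatives 28 to 37 rose and 25 to 40 fell. The share of all genes that passed moved too, for example to 12.6% and 13.8% with the term for Y-linked counts. The ranges alone therefore do not measure how stable these genes are. With a fold threshold of 1.2 the falls numbered 1 in the pentose phosphate list, 3 in the heme list and 4 in the thioredoxin list, which had 3 rises, and 0 among NRF2 regulators. Without a filter the heme list had 3 falls, and with Mut1819 as the only mutant the pentose phosphate, heme and thioredoxin lists had 2, 3 and 4. Of 179 values of members, 172 kept direction and side of the threshold and 7 lost the call, for Nfe2l2 and Gsr. With a fold threshold of 1.2, Nfe2l2 (adjusted p = 0.154) and Gsr (adjusted p = 0.511) did not pass, and Nfe2l2 did not with Mut1819 as the only mutant (adjusted p = 0.0619), which leaves the spread to the controls. The other losses are given beside those genes. At 10 CPM, Osgin1 was not tested. Of 593 values of other named genes, 17 lost the call, in Pgls, Sod2 and Slc48a1. No scaling moved the median of all genes by over 0.1. No paired analysis was made because the labels do not say which mice are littermates. Counts limit Osgin1 most, with 82 to 221 per library.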

Other observations

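Of 5 genes for superoxide dismutases, their copper chaperone and catalase, antioxidant enzymes not among the members, 4 fell and 1 missed the threshold. The median was -0.77 on the log2 scale. Sod3, which encodes the extracellular superoxide dismutase, went from 237 ± 23.6 to 61.1 ± 8.32 CPM (n = 4, log2 fold change -1.96, edgeR adjusted p = 5.15e-08). Catalase, Cat, went from 255 ± 31.3 to 149 ± 12.4 CPM (log2 fold change -0.77, adjusted p = 2.09e-05), and Ccs, the copper chaperone, from 68.4 ± 5.79 to 39.6 ± 2.04 CPM. Sod2, the mitochondrial enzyme, fell by 0.20 on the log2 scale (edgeR adjusted p = 0.0217), and lost the call without Con1452, Con1823, Mut1393 or Mut1819, in a range from -0.16 to -0.19. The proximal tubule markers fell in the same mice, and their part in these values was not tested.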
